A study of Homo sapiens with 18 samples.

Results

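The CpGs described here were methylated in HCT15 and unmethylated in DU145 and PC3. They were selected on the reduced representation bisulfite sequencing (RRBS) values of the 3 cell lines. A member is an autosomal CpG that was covered by at least 20 reads in each RRBS file, with at least 80% of the reads methylated in HCT15 and at most 20% in both DU145 and PC3. The rule chose 15228 of the 953749 CpGs with that coverage in all 3 files, called the measured CpGs below. Because the RRBS values chose the members, the RRBS contrast is a description and carries no test.

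HCT15 is an established colorectal carcinoma cell line, and DU145 and PC3 are established prostate cancer cell lines. The labels give ATCC as the source of all 3, whereas the study's methods name another supplier for DU145. All were grown in ATCC complete medium, and the labels name no treatment. The genomic DNA of each line was assayed once by RRBS and once by sequencing after capture with each of 5 methyl-CpG binding domain (MBD) kits, which gave 3 RRBS and 15 MBD-seq libraries. The kits were MethylMagnet, MethylCollector, MethylCollector Ultra, MethylCap and MethylMiner. A cell line therefore has 1 RRBS library, and its 5 kits are its only MBD-seq replicates, so that a p-value measures the spread between kits and not that between cultures. With 1 colorectal and 2 prostate lines, tissue of origin and the individual line cannot be told apart.

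In mammalian DNA, methylation is found mostly on the cytosine of CpG dinucleotides, and most CpGs scattered through the genome carry it. CpG islands, the CpG-rich stretches that overlap many gene starts, are mostly free of it in normal cells. In tumour cells a share of islands is methylated, often over many neighbouring CpGs, and island methylation at a gene start is known to accompany silencing of that gene. RRBS reads the state of single CpGs in CpG-rich restriction fragments, whereas MBD capture pulls down whole fragments according to how many methylated CpGs they hold.

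The reference sequence of 5 promoter stretches shows how closely the members stood. They were picked after their values were seen, as stretches in which nearly all CpGs were members. The first 4 belong to the 25 promoters with the most members. Stretches of several other promoters among the 25, chosen by the same length limit, were less uniform. Those of JAKMIP3, NTSR1, FSTL4 and ADAM8 held 21, 19, 17 and 16 members. Beside them stood 4, 5, 5 and 1 non-member CpGs outside CCGG and TCGA. Those of GNAO1, IGDCC3 and LMX1B held 10, 10 and 12 members beside 16, 10 and 9 such CpGs. Those of TMEFF1 and IQSEC1 held 12 and 8 members beside 0. Non-members are counted in the reference and can include CpGs below the coverage minimum. Each stretch is from GRCh37 and is written 5′ to 3′ on the strand of the gene, with the member CpGs in capitals and all other bases in lower case.
GNB4 (chr3:179169027-179169132, minus strand): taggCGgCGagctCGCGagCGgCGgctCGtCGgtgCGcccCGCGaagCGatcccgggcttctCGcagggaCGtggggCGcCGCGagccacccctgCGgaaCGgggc
ELOVL5 (chr6:53213491-53213611, minus strand): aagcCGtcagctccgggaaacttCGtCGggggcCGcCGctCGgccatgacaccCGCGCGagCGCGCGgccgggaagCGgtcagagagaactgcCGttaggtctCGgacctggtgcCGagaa
STC2 (chr5:172755551-172755678, minus strand): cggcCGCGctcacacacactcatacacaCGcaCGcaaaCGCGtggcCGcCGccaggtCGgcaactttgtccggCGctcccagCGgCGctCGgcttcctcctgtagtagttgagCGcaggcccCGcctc
TBX2 (chr17:59476497-59476626, plus strand): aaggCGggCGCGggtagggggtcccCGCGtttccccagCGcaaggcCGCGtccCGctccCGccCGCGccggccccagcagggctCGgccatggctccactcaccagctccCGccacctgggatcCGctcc
WNT7A (chr3:13921667-13921749, minus strand): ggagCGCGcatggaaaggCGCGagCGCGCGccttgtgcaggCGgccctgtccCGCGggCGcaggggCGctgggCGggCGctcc
The GNB4 stretch lay 132 to 237 bp after the gene start, and 19 of its 20 CpGs were members. Their mean methylation was 97.5% in HCT15, 0.372% in DU145 and 3.13% in PC3. In ELOVL5, 366 to 486 bp after the start, 16 of 18 CpGs were members, with means of 98.2%, 0.769% and 0.577% in the same order. In STC2, 228 to 101 bp before the start, 15 of 17 CpGs were members, with means of 99.02%, 1.54% and 2.44%. In TBX2, 707 to 578 bp before the start, 15 of 16 CpGs were members, and the means were 96.5%, 3.20% and 1.38%. In WNT7A, 181 to 99 bp before the start, all 14 CpGs were members, with 99.1%, 0.446% and 0.720%. Every lower-case CpG in these 5 stretches lies in CCGG or TCGA.

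CpGs in CCGG and TCGA were rare among the members as a whole, which limits what the rule can select. CCGG is the sequence cut by the restriction enzyme MspI and TCGA the one cut by TaqI, and the enzymes used here are not given in the sources used here. Of the measured CpGs, 28.0% lay in CCGG and 7.69% in TCGA, but of the members only 32 (0.210%) and 3 (0.0197%) did. The CpGs unmethylated in all 3 lines were depleted in the same way, with 0.447% in CCGG, whereas 36.1% of the CpGs methylated in all 3 lines lay there. CpGs in CCGG almost never read as unmethylated in any line: 1.30% of them had at most 20% methylation in HCT15, 0.980% in DU145 and 1.52% in PC3, against 44.05%, 47.9% and 51.6% of the CpGs outside both sites. At CpG-dense gene starts (within 200 bp, at least 20 CpGs within 100 bp), the CpGs in CCGG read a median of 54.8%, 53.6% and 53.6% in HCT15, DU145 and PC3, and those outside both sites 0% in all 3. The members are therefore almost wholly drawn from CpGs outside these 4-base sites, and the cause of the site readings was not tested. Without CpGs in either site, 15193 members of 613210 measured CpGs remain, and the promoter means below use only CpGs outside the sites. Unless stated otherwise, shares and rates over all measured CpGs below still include the CpGs in the sites.

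At the members the 2 states were well apart. The median methylation was 96.3% for HCT15, 2.99% for DU145 and 2.94% for PC3, with means of 94.97% ± 5.40 (SD over 15228 CpGs), 5.12% ± 5.51 and 4.63% ± 5.16. In HCT15, 5453 members (35.8%) had only methylated reads. No methylated read was seen at 3747 members in DU145 and at 4901 in PC3. The median coverage was 36 reads in HCT15, 102 in DU145 and 63 in PC3, against 36, 66 and 47 at all measured CpGs. At the coverage minimum, 16 methylated reads of 20 give a 95% Wilson interval of 58.4% to 91.9%, and 4 of 20 give 8.07% to 41.6%. At the median coverages, 35 of 36 reads give 85.8% to 99.5% and 3 of 102 give 1.01% to 8.29%. These intervals cover counting error only, since the reads carry no molecular identifiers.

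CpGs just inside or just outside a limit were few beside the 15228 members, but intermediate values in HCT15 were common. In HCT15, 482 members had 80% to 82%, and 268 CpGs that met the limits in DU145 and PC3 missed the HCT15 limit with 78% to 80%. In DU145, 519 members had 18% to 20%, and 384 CpGs stood just outside with 20% to 22%. In all, 3199 CpGs with at most 20% in DU145 and PC3 had 60% to 80% in HCT15, and 13067 had 20% to 60%.

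The same rule with the other lines exchanged gave far fewer CpGs. Only 2491 measured CpGs were methylated only in DU145 and 1658 only in PC3, whereas 304906 were methylated and 243123 unmethylated in all 3 lines. Members were found on each of the 21 autosomes that could be measured, at 7.38 to 22.8 per 1000 measured CpGs (median 16.6). Chromosome 21 had the lowest share and chromosome 10 the highest. The corresponding ranges were 1.64 to 3.83 for DU145 and 0.893 to 5.18 for PC3, so the HCT15 set was the largest on every measured autosome. Chromosome 22 and the end of chromosome 21 are not in the PC3 RRBS file used here, and no member could be found there.

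Members stood in tight runs. The median distance from a member to the nearest other member, on either side, was 5 bp, and 92.7% of these distances were at most 100 bp. When members at most 500 bp apart were joined, 13841 of them (90.9%) fell into 1445 clusters of at least 3 members. A cluster held a median of 7 members over 168 bp. There were 500 clusters of at least 10 members, which together held 59.8% of all members, and 160 clusters of at least 20. Only 703 members (4.62%) stood alone. The CpGs methylated only in PC3 were also clustered, with 80.2% in clusters, whereas 34.0% of those methylated only in DU145 were and 49.7% of them stood alone. Of the CpGs unmethylated in all 3 lines 97.6% fell into clusters, and of those methylated in all 3 lines 74.4%. These shares were not tested, since neighbouring CpGs lie on the same fragments and are not independent.

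Within the clusters most of the other CpGs were methylated in HCT15 as well. Outside CCGG and TCGA, the clusters held 19660 measured CpGs, of which 13811 (70.2%) were members. In 450 of the 1445 clusters (31.1%) every such CpG was a member. Of the 5849 that were not members, 1804 (30.8%) had under 80% in HCT15, and the others missed a limit in DU145 or PC3 only. The 5849 non-members had means of 84.8% ± 20.5 (SD over CpGs), 22.1% ± 22.1 and 19.7% ± 21.9 in HCT15, DU145 and PC3, and 92.7%, 11.6% and 10.2% of them had at least 50%. The rule did not use 6469 CpGs within clusters that were covered by only 6 to 19 reads in at least 1 line. From these, CpGs in CCGG and TCGA were not left out. Their means were 91.4% ± 16.0, 16.5% ± 24.4 and 15.9% ± 24.6, and their medians 100%, 3.85% and 4.17%. They lie between members of the same clusters and are not independent of them.

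The contrast faded with distance from the clusters. From 1 to 100 bp outside, the mean methylation outside the sites was 79.7% ± 26.1 (SD over 4411 CpGs) in HCT15, 25.7% ± 25.2 in DU145 and 22.7% ± 27.2 in PC3. From 501 to 1000 bp it was 48.2% ± 42.6, 30.02% ± 36.9 and 28.3% ± 37.1. The medians at that distance were 45.7%, 6.73% and 5.17%. From 5001 to 10000 bp the means were 58.5%, 56.3% and 53.8% and the medians 83.2%, 73.1% and 65.6%. CpGs within 100 bp of the single members had a mean of 78.4% in HCT15, 30.9% in DU145 and 28.6% in PC3 over 3006 CpGs outside the sites.

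**Figure D1:**
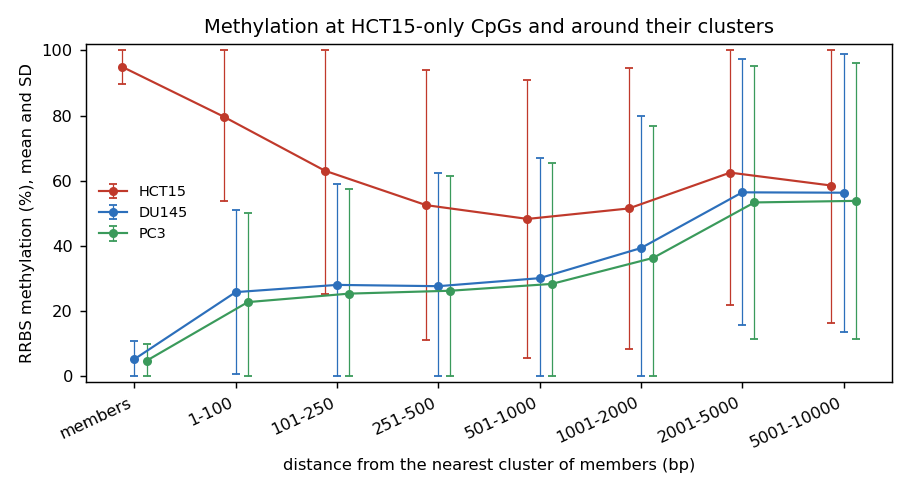
Mean RRBS methylation in percent (y axis) in HCT15, DU145 and PC3 at the members and at CpGs outside CCGG and TCGA in 7 ranges of distance in bp from the nearest cluster (x axis). Bars are the SD over CpGs, drawn only between 0 and 100. HCT15 falls from 94.97% at the members to 48.2% at 501 to 1000 bp, and from 2001 bp on the 3 means lie between 53.3% and 62.5%.

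Members lay in the CpG-richest part of what was measured. The median number of CpGs within 100 bp on both sides was 23 for members (quartiles 19 and 28) and 13 for all measured CpGs. It was 9 for CpGs methylated only in DU145 and 20 for those methylated only in PC3. CpGs unmethylated in all 3 lines had 23 and those methylated in all 3 had 9, so in this measure the members resembled the former. The share of measured CpGs that were members rose at each step of density, from 0.341 per 1000 with 1 to 4 CpGs, to 21.04 with 15 to 19 and to 40.9 with at least 30. The share methylated only in DU145 went the other way, from 4.02 per 1000 with 5 to 9 CpGs to 0.452 with at least 30. The GC content of the surrounding window had a median of 73.8% for members and 64.4% for all measured CpGs.

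**Figure D2:**
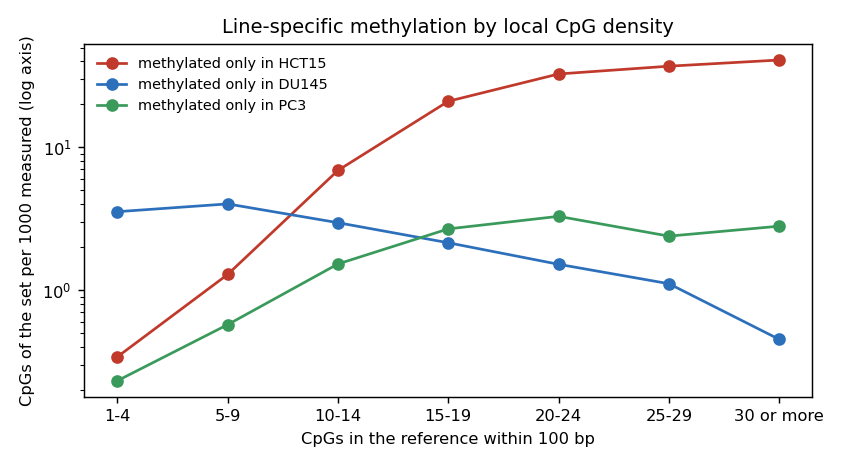
Number of CpGs methylated only in HCT15, DU145 or PC3 per 1000 measured CpGs (y axis, log scale) by the number of CpGs in the reference within 100 bp (x axis). The HCT15 line rises from 0.341 to 40.9, the PC3 line stays between 0.232 and 3.29, and the DU145 line falls to 0.452.

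Of the members, 7759 (51.0%) lay in a promoter, defined as 1000 bp before to 500 bp after the start of any annotated gene. A further 7.85% lay in 5′ untranslated regions beyond that window, 10.6% in coding exons, 21.3% in introns and 5.54% between genes. Of all measured CpGs, 31.8% lay in promoters, and of those unmethylated in all 3 lines 67.0%. All measured CpGs include those in CCGG and TCGA, which were almost never members, and their share without these is not given here. The shares were 43.5% for CpGs methylated only in PC3, 14.6% for DU145 and 8.30% for those methylated in all 3. The promoter share depended on the window and ranged from 23.9% within 200 bp on both sides to 74.2% within 2000 bp, against 15.1% and 45.6% of all measured CpGs. Relative to what was measured, members were most frequent downstream of the gene start, with 27.7 per 1000 measured CpGs at 0 to 200 bp, 30.9 at 201 to 500 bp and 32.0 at 501 to 1000 bp, which lies beyond the promoter window. In the 200 bp upstream there were 22.1 per 1000. Only 29.8% of members lay upstream of their nearest gene start, against 40.5% of measured CpGs.

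A promoter was counted as hit when it held at least 3 members. Of 11509 protein-coding promoters with at least 3 measured CpGs, 601 were hit, which is 5.22% and the background for the gene lists below. With DU145 and PC3 as the methylated line, 19 and 45 promoters were hit. Of the 601 promoters, 236 held at least 10 members and 63 at least 20. The median methylation of a hit promoter was 91.8% in HCT15, 8.60% in DU145 and 7.97% in PC3, against 1.22%, 1.40% and 1.54% over all 11509 promoters. Among the genes that do not code for protein, 222 of 4968 lncRNA promoters and 14 of 461 miRNA promoters were hit.

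The 25 promoters with the most members held between 27 and 49 of them. Their mean methylation outside the sites ranged from 80.5% to 97.8% in HCT15, from 0.462% to 14.6% in DU145 and from 0.949% to 18.0% in PC3. HCT15 did not overlap the other lines, which follows from ranking promoters by members that the same RRBS values chose. TMEFF1, which encodes a transmembrane protein with follistatin-like and EGF-like domains, came first with 49 of 57 measured CpGs. Its promoter (chromosome 9, 103234431 to 103235931) averaged 96.5% ± 4.89 (SD over 50 CpGs) in HCT15, 1.06% ± 1.55 in DU145 and 4.40% ± 4.43 in PC3.

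Several of the 25 genes encode signalling proteins. GNB4, a β subunit of heterotrimeric G proteins, had 44 of 51 measured CpGs as members, and all 44 CpGs outside the sites were members. Its promoter averaged 97.8% ± 4.35 in HCT15, 0.626% ± 1.03 in DU145 and 2.72% ± 3.58 in PC3. GNAO1, the α subunit of the Go protein, held 32 members and RGS17, which shuts off G protein signals, held 28. NTSR1, the receptor of the peptide neurotensin, held 37 of 73 measured CpGs, and here DU145 had a mean of 14.6% ± 19.3, the highest of the 25. STC2, a secreted glycoprotein hormone, held 30 members and averaged 96.2% in HCT15, 1.32% in DU145 and 2.13% in PC3. IQSEC1, which activates Arf GTPases in membrane traffic, held 34 of 38, that is every CpG measured outside the sites, with 96.9% ± 3.83, 0.462% ± 0.983 and 1.01% ± 1.39.

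Others encode matrix and surface proteins. COL4A1, the α1 chain of the collagen IV of basement membranes, held 40 members and averaged 95.1% ± 6.29, 3.14% ± 6.74 and 9.12% ± 13.9 in HCT15, DU145 and PC3. PXDN, the peroxidase that cross-links collagen IV, held 35 of 42 and averaged 96.3% ± 4.21, 3.08% ± 2.40 and 0.983% ± 1.18. ADAM8, a membrane-bound metalloprotease, held 30 members, and EVC, a protein of the primary cilium that acts in Hedgehog signalling, held 33. ELOVL5, an enzyme that lengthens polyunsaturated fatty acids, held 38 of 51, although its wider promoter varied more than the printed stretch, at 90.6% ± 22.9, 9.85% ± 27.8 and 7.23% ± 21.2. BNIP3, a mitochondrial protein that directs mitophagy in hypoxia, held 30 of 36, with 97.2% ± 3.29, 0.759% ± 0.780 and 1.70% ± 4.78. Developmental transcription factors were represented by LMX1B and PRRX2, both homeobox factors with 32 members, and TBX2, a T-box repressor with 32. TBX2 had the lowest HCT15 mean, 80.5% ± 24.4, and stayed low in DU145 (5.02% ± 6.76) and PC3 (1.38% ± 1.55).

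The other promoters of the 25 were those of GREB1L, FNDC4, JAKMIP3, FSTL4, DLGAP3, SLC35F3, MED12L, C14orf132 and IGDCC3, with 27 to 41 members each. FSTL4, a follistatin-like secreted protein, had the highest PC3 mean, 18.0% ± 29.9, beside 91.0% ± 13.5 in HCT15.

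**Figure D3:**
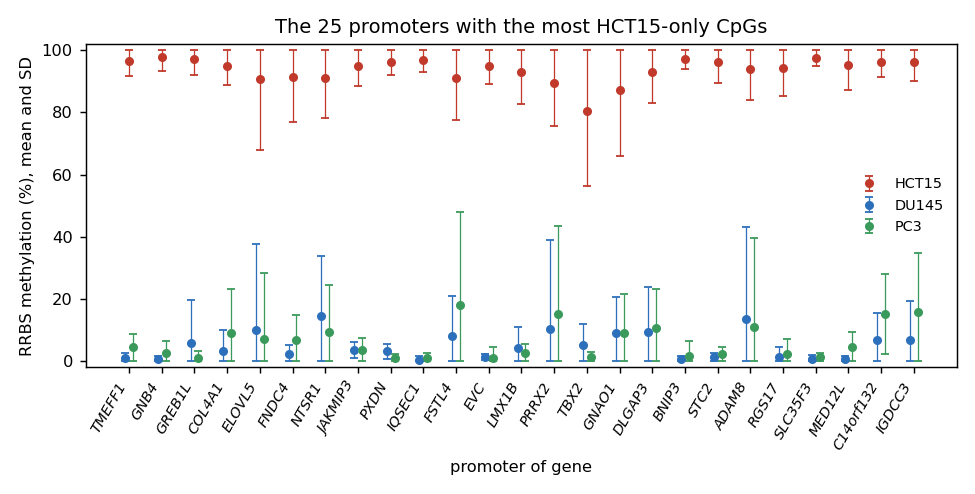
Mean RRBS methylation in percent (y axis) of the CpGs outside CCGG and TCGA in the 25 promoters with the most members (x axis, ordered by number of members) in HCT15, DU145 and PC3. Bars are the SD over CpGs, drawn only between 0 and 100. All HCT15 means lie at or above 80.5%, and all DU145 and PC3 means at or below 18.0%.

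Among genes known as methylation markers of colorectal cancer, 9 of 33 measured promoters were hit, beside the background of 5.22%. GATA5, an endodermal zinc finger transcription factor, held 22 of 89 measured CpGs as members and averaged 90.3%, 29.6% and 27.1% in HCT15, DU145 and PC3. SDC2, a heparan sulphate proteoglycan of the cell surface, held 21 of 48 and averaged 91.0%, 14.9% and 3.36%. WIF1, a secreted inhibitor of Wnt ligands, held 10 of 27 and averaged 97.4%, 21.5% and 33.3%. The other 6 were ALX4 with 6 members, BCAT1 with 6, CRABP1 with 6, AKAP12 with 5, NEUROG1 with 5 and HIC1 with 4. BCAT1, an aminotransferase of branched-chain amino acids, averaged 82.5%, 0.919% and 6.35%. The median of the 33 promoters was 83.9% in HCT15, 18.2% in DU145 and 10.3% in PC3.

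The other lists were mostly short, and their counts carry no test beside the background share. Of 8 measured promoters of prostate cancer methylation markers, only RASSF5 was hit, with 3 members and means of 72.6%, 40.8% and 45.9%. Of 17 epithelial and mesenchymal genes, only FN1 was hit. It encodes the matrix protein fibronectin, and its 5 CpGs outside the sites were all members, with means of 97.3%, 6.80% and 0.595%. No promoter was hit among 11 intestinal lineage genes, 5 prostate lineage genes, 11 integrin and caveolin genes, 5 antigen presentation genes and 30 ribosomal protein genes. The ribosomal protein promoters had medians of 0.719%, 1.34% and 0.891%. The intestinal lineage promoters ran against the members, with a median of 2.61% in HCT15, 77.5% in DU145 and 31.6% in PC3 over 11 genes.

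The share of promoters hit was uneven over gene families, and these shares were not tested. Among transcription factor families, 4 of 14 SOX genes, 3 of 11 T-box genes and 17 of 113 homeobox genes outside the HOX clusters were hit. None of the 33 HOX genes and none of the 7 PAX genes was hit. The PAX promoters were methylated in every line, with medians of 94.5%, 85.8% and 84.1%. The HOX promoters had medians of 29.6% in HCT15, 56.3% in DU145 and 21.1% in PC3. Of 349 zinc finger genes named ZNF, 34 were hit (9.74%), and of 39 forkhead genes 1 (2.56%). Of 60 potassium channel genes 11 were hit (18.3%), of 37 receptors named GPR 5 (13.5%) and of 11 WNT genes 3 (27.3%). Of 180 solute carriers 9 were hit (5%), which is near the background. Of 17 keratin genes none was hit. The examples in the next sentences were chosen after their values were seen. SOX2, a factor of stem cells and the nervous system, had all 8 CpGs outside the sites as members and averaged 97.3%, 4.02% and 5.06%. WNT7A, a secreted Wnt ligand, held 17 of 28 and averaged 98.6%, 1.87% and 11.1%. ZNF75A held 25 of 32 and averaged 98.6%, 1.95% and 5.51%. KCNMA1, the pore-forming subunit of a calcium-activated potassium channel, held 15 of 26 and averaged 84.3%, 0.792% and 1.03%.

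Of the 5 clusters with the most members, 4 spanned a gene start, and the largest began 124 bp after one. It held 52 members over 1587 bp in MED12L, a relative of a Mediator subunit (chromosome 3, 150803197 to 150804783). It had 27 members in the promoter window, 5 in a 5′ untranslated region, 6 in coding exons and 14 in introns, with means of 97.7% ± 2.73 (SD over 52 members), 1.34% ± 2.41 and 4.32% ± 4.33. The next were at TMEFF1 with 51 members, GREB1L with 48, NPTX1 with 47 and SDK1 with 46. NPTX1, a pentraxin secreted at synapses, had 28 of its 47 members in coding exons. Outside promoters, the genes with the most members were OBSL1 with 47, PAX2 with 45, SLC30A3 with 44, and NEUROD2 and PPP2R2C with 43 each. All 43 members in NEUROD2, a neuronal transcription factor, lay in coding sequence in 1 run, whereas those in PAX2, a kidney and eye factor whose own promoter window held no member among 38 measured CpGs, fell into 6 separate runs.

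MBD-seq did not enter the choice of members and gave an independent reading. Depth is the number of distinct captured fragments over a base, and relative depth is the mean depth at the members divided by that at all measured CpGs of the same library. Libraries differed widely in yield, from 9876 autosomal fragments (DU145 MethylMagnet) to 7163312 (HCT15 MethylMiner), so the precision of a relative depth differed as well. Neighbouring members share fragments and are not separate observations.

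In HCT15 the relative depth at the members was 5.35 with MethylMagnet, 3.96 with MethylCollector, 3.10 with MethylCollector Ultra, 1.69 with MethylCap and 0.939 with MethylMiner. In DU145 it was 0.911, 0.914, 0.662, 0.531 and 1.10 in the same order of kits, and in PC3 0.492, 0.611, 0.535, 0.538 and 1.24. HCT15 was the highest line in 4 of the 5 kits, without overlap with the other lines' values in those 4 kits, and the lowest line with MethylMiner. On the log2 scale, the difference between HCT15 and the mean of the other lines was 3.00, 2.41, 2.38, 1.66 and -0.31. Its mean was 1.83 ± 1.29 (SD, n = 5 kits), a 3.55-fold difference, with p = 0.0123 in a two-sided exact permutation test that moved the HCT15 label within each kit (smallest possible p 0.00412). Without MethylMiner the mean rose to 2.36, with the exact p = 0.0123 that is the smallest for 4 kits.

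The same exact test was run on 5 sets of CpGs, and the p-values adjusted over the 5 by Benjamini-Hochberg are given here. For the members the adjusted p was 0.0309 in this permutation test. For CpGs methylated only in DU145 the difference was -0.92 and for those methylated only in PC3 it was -1.81, with exact adjusted p of 0.239 and 0.0754. CpGs methylated in all 3 lines had -0.16 (exact adjusted p = 0.0926). CpGs unmethylated in all 3 lines had -0.46, lower in HCT15 in 5 of 5 kits (exact adjusted p = 0.0206). A higher mean in HCT15 was seen only for the members, the only set chosen as more methylated in HCT15 than in both other lines.

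**Figure D4:**
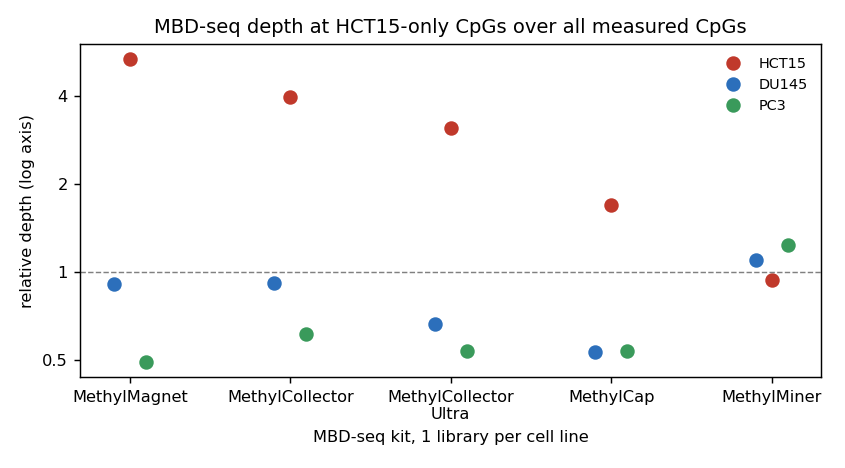
Relative depth at the members (y axis, log scale; 1 is the mean of all measured CpGs, dashed) in the 15 MBD-seq libraries, by kit (x axis) and cell line, 1 point per library. HCT15 lies between 1.69 and 5.35 in 4 kits, above both other lines, and at 0.939 with MethylMiner, below them.

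The share of members with any fragment gave the depth behind these values. In HCT15 it was 38.8% with MethylMagnet, 68.1% with MethylCollector, 74.99% with MethylCollector Ultra, 80.1% with MethylCap and 60.5% with MethylMiner. In DU145, members with a fragment made up 1.35%, 2.92%, 1.73%, 13.6% and 42.3%. The 3 lowest of these came from libraries of 9876, 29202 and 29914 fragments. In PC3 the shares were 9.92%, 5.79%, 15.6%, 15.3% and 43.4%. Over all measured CpGs the HCT15 shares were 7.67%, 20.1%, 28.9%, 53.0% and 62.1% in the same order of kits. The DU145 shares were 1.39%, 3.06%, 2.59%, 22.7% and 39.0%, and the PC3 shares 11.8%, 8.05%, 23.1%, 25.4% and 35.8%. MethylMiner thus covered over 40% of the members in DU145 and PC3, where RRBS read them as unmethylated, against 39.0% and 35.8% of all measured CpGs.

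Around the centres of the 1445 clusters, HCT15 showed a single peak in 4 kits. At the centre the depth over the autosomal mean of the library was 157.3 with MethylMagnet, 87.2 with MethylCollector, 41.5 with MethylCollector Ultra and 10.9 with MethylCap, and at -3000 bp it was 6.17, 5.49, 4.12 and 2.66. In DU145 the centre had 13.2, 14.0, 9.51 and 3.77 against 3.604, 4.12, 2.93 and 2.71 at -3000 bp, and in PC3 10.6, 14.3, 6.86 and 3.39 against 4.85, 3.18, 3.11 and 2.72. Both of these lines were thus also higher around the clusters than at -3000 bp. Their highest values lay off the centre, for example 28.8 in DU145 and 18.6 in PC3 at 300 bp with MethylMagnet. The autosomal mean covers all autosomal sequence and not only the measured CpGs. Against all measured CpGs, the relative depth at the members in these kits was 0.531 to 0.914 in DU145 and 0.492 to 0.611 in PC3. No profile around clusters of all measured CpGs is given beside it. The DU145 values of the first 3 kits rest on libraries of 9876 to 29914 autosomal fragments. With MethylMagnet the DU145 mean depth was only 0.0166 at 300 bp and 0.00761 at the centre, so the place of that peak is uncertain. With MethylMiner all 3 lines rose, from 1.69 in HCT15, 1.73 in DU145 and 1.72 in PC3 at -3000 bp to 2.14, 3.47 and 4.14 at the centre. This order of lines was not particular to the members. At CpGs unmethylated in all 3 lines the MethylMiner relative depth was 0.981, 1.04 and 1.18. The study reported that the MethylMiner profile resembled the background of all RRBS loci.

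**Figure D5:**
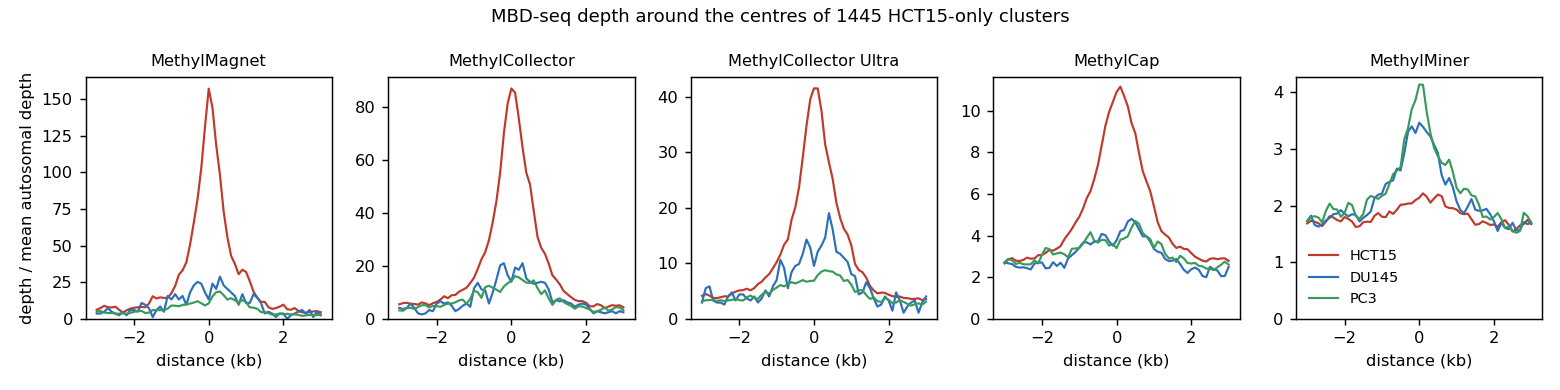
Mean MBD-seq depth divided by the autosomal mean of the library (y axis, a scale of its own for each kit) at distances from -3 to 3 kb (x axis) from the centres of the 1445 clusters, for HCT15, DU145 and PC3. HCT15 peaks at 157.3, 87.2 and 11.2 with MethylMagnet, MethylCollector and MethylCap, whereas with MethylMiner DU145 and PC3 stand above it at the centre.

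The depth at members depended on the local CpG density differently in each kit. In HCT15 with MethylMagnet, the relative depth rose from 0.179 at members with 5 to 9 CpGs within 100 bp to 8.15 at those with 25 to 29, and was 5.30 at 30 or more. With MethylCollector it rose from 0.603 to 5.34 and was 2.85 at 30 or more. With MethylCap it was 1.31 at 5 to 9 CpGs, 2.21 at 15 to 19 and 0.609 at 30 or more. MethylMiner ranged from 0.890 to 1.16 between 5 and 29 CpGs and had 0.464 at 30 or more. All 5 kits thus fell at the highest density. In HCT15 the depth at members was also set against that at CpGs of the same density that were methylated in all 3 lines. The ratio was 0.878 to 1.65 at 5 to 9 CpGs, 0.829 to 0.925 at 15 to 19 CpGs and 0.535 to 0.647 at 30 or more, over the 5 kits. MethylMiner, with 0.646 at the highest density, fell within the range of the other kits.

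How strongly depth followed the clustering of members differed between kits. With MethylMagnet, the relative depth in HCT15 was 2.24 at the 703 single members and 6.01 at the 9112 members in clusters of at least 10. These subsets also differed in density, with medians of 14 and 25 CpGs within 100 bp, so clustering and density cannot be told apart here. MethylCap gave 1.70 and 1.61 at the same subsets. The fold of HCT15 over DU145 with MethylCap was 2.02 at single members and 3.48 in clusters of at least 10, and that over PC3 was 2.69 and 3.50. Members inside and outside promoters had similar MethylCap folds over DU145, 3.22 and 3.16, and folds over PC3 of 3.44 and 2.94. The other kits differed more or less. Over DU145 the folds inside and outside were 7.57 and 4.79 with MethylMagnet and 4.74 and 3.99 with MethylCollector. With MethylCollector Ultra they were 3.71 and 6.31, higher outside, and with MethylMiner 0.870 and 0.846.

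MethylCap was read cluster by cluster, since it combined depth with contrast. A cluster was called when its mean depth in HCT15 was at least 3 and its relative depth was at least 2 times that in both DU145 and PC3. Of the 1445 clusters of members, 460 (31.8%) were called, against 7.4% of the 90902 clusters formed in the same way from all measured CpGs. In 359 clusters (24.8%) the relative depth in HCT15 was below that in at least 1 other line, against 46.2% of all clusters. Of the 669 clusters with the minimum depth, 68.8% were called, against 26.5% of the 25344 among all clusters. That filter was set on HCT15, the line in which the members are methylated. The median depth was 2.71 in HCT15 and 0 in both other lines, against 1.5, 0 and 0 over all clusters. These depths and the shares in the next sentences are not scaled for yield. The HCT15 MethylCap library held 4.72 times the autosomal fragments of the DU145 library and 4.10 times those of PC3. A cluster without fragments in both other lines meets the fold condition through its HCT15 depth alone. No fragment lay over the members of 6.02% of the clusters for HCT15, 73.1% for DU145 and 71.0% for PC3. Over all clusters these shares were 24.9%, 60.2% and 58.0%. With the depths of MethylMagnet, both MethylCollector kits and MethylCap summed, 861 clusters (59.6%) were called, against 8.89% of all clusters. There is 1 MethylCap library per line, so these calls have no replicate check.

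Single promoters showed the contrast in whole fragments. Over the 25 promoters with the most members, HCT15 MethylCap had 6 to 34 fragments a promoter (median 18) and 476 in all, DU145 had 33 in all and PC3 19. In the same order of lines MethylCollector gave 203, 4 and 6 fragments, MethylCollector Ultra 267, 5 and 33, and MethylMagnet 79, 2 and 25. With MethylMiner the totals were 178, 123 and 91, and 25, 25 and 23 of the 25 promoters held a fragment. The libraries differed in yield. Per 1000000 autosomal fragments the totals were 1345, 203 and 106 with MethylMagnet, 776, 137 and 71.9 with MethylCollector, 416, 167 and 58.2 with MethylCollector Ultra and 124, 40.7 and 20.4 with MethylCap. With MethylMiner they were 24.8, 42.5 and 44.8, lowest in HCT15. The DU145 totals of the first 3 kits rest on 2 to 5 fragments. The counts in the next sentences are not scaled. At STC2, the MethylCap counts were 34 in HCT15 and 0 in both DU145 and PC3, and the MethylMiner counts were 6, 3 and 5. At BNIP3, MethylCollector gave 22, 1 and 0 fragments, MethylCap 19, 3 and 0, and MethylMiner 4, 3 and 5. At IQSEC1, where all CpGs outside the sites were members, MethylMagnet gave 0, 0 and 1 and MethylCap 11, 0 and 1. At NTSR1, MethylMagnet gave 4, 1 and 11, the largest PC3 count of this kit in the 25 promoters, from a PC3 library of 236128 autosomal fragments against 58734 for HCT15.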

How the data were processed

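RRBS (1 library per cell line) and MBD-seq (5 kits, 1 library per kit and line) of HCT15, DU145 and PC3 were used. The RRBS tables deposited by the authors list, for CpGs of hg19 with at least 6 reads, the counts of methylated and total reads summed over strands. The aligner is not given in the sources used here. The MBD-seq tables deposited by the authors hold an unscaled signal, the coverage depth of captured fragments. The authors mapped paired reads with Bowtie, kept unique pairs within 400 bp and collapsed duplicates. MBD positions appeared to count from 0 and were read so, and RRBS positions count from 1.

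The tables were joined on GRCh37 with the GENCODE 44 genes lifted to that build. The members, gene lists and families were chosen with earlier results of these data known. Named genes were the 25 protein-coding promoters with the most members, every hit gene of the 8 lists, the 5 largest clusters and the 5 genes with the most members outside promoters. Annotation categories were assigned in the order promoter, 5′ untranslated region, coding exon, 3′ untranslated region, non-coding exon, intron. RRBS autosomal reads totalled 71444383 in HCT15, 128307477 in DU145 and 93623679 in PC3. MBD-seq depth was compared by an exact permutation test within kits, tested on simulated data. Alternatives covered coverage, methylation limits, cluster distance, promoter window, scaling, calls and each kit left out. Python 3.11.15, numpy 2.4.6, pandas 2.3.3, scipy 1.17.1 and pysam 0.24.0 were used.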

Additional observations from a re-analysis of the deposited data

Results flagged for a closer look

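The PC3 MethylMiner library stood apart from the other 4 PC3 libraries in its depth at the members. Its log2 relative depth was 0.31, while the other 4 lay between -1.02 and -0.71, and the gap to the nearest of them was 76.4% of the range of the 5. About 1 in 20 groups of 5 alike libraries is flagged in this way by chance. Here each library came from a different kit, so that rate need not apply. In DU145 MethylMiner was also the highest of the 5 libraries, with 0.13, and its gap was below the limit.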

How the results depend on the processing

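The number of members was set by the limits: 23582 with a coverage minimum of 10, 4353 with 50 and 8836 with limits of 90% and 10%. It stayed within 1.5 times of 15228 with limits of 70% and 30% (20972), without very deeply covered CpGs (15226) and, chosen after seeing the data, without CpGs in CCGG or TCGA (15193). The promoter share was 23.9% within 200 bp on both sides, 74.2% within 2000 bp, 40.5% for protein-coding genes only and 74.8% with every transcript start. Promoters hit numbered 903 with at least 1 member. MethylCap called 192 clusters (13.3%, against 2.26% of all clusters) at a depth of at least 5, and 861 with 4 kits summed. The median density was 53 CpGs within 250 bp. The number of members in clusters kept within 1.5 times under every alternative run. The log2 MBD-seq difference kept its direction and its side of the threshold under all alternatives run, at 1.54 to 2.36 with each kit left out (exact p at most 0.037). With no replicate block, permuting labels over all 15 libraries, it was 1.83 with a permutation p of 0.000999. Pairing rests on the kit in the labels, each kit having been applied to each line. Depth limits the DU145 readings most, as 3 of its libraries held 9876 to 29914 autosomal fragments.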
